A study of Homo sapiens with 16 samples.

Results

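The genes described here are 10 inflammatory cytokines that epithelial tumour cells can make: TNF, IL6, IL1A, IL1B, IL11, IL18, IL32, LIF, CSF1 and CSF2. They were chosen by gene symbol among the 59428 genes of the count table, chemokines were left out, and all 10 symbols were found. Olaparib, an inhibitor of PARP enzymes, was compared with its solvent DMSO in 2 ovarian carcinoma cell lines, OVCAR3 with intact BRCA1 and UWB1.289 with mutated BRCA1. RNA was taken after 96 h from 4 replicates in each of 4 groups, which gave 16 libraries.

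OVCAR3 was grown in RPMI1640 with 20% serum and bovine insulin and received 7.5 µM olaparib. UWB1.289 was kept with 3% serum in a mixture of MEGM and RPMI1640 and received 3.5 µM. Each dose was the half-maximal inhibitory concentration measured in that line, and every control culture carried DMSO. Each BRCA1 state is represented by a single line, so line, BRCA1 state, dose and medium cannot be told apart. The paper describes the treatment as done in 4 replicates, and the labels do not say whether these came from separate cultures. The p-values therefore measure the spread between these libraries, which may be technical.

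Cytokines are small secreted proteins through which cells alter the behaviour of their neighbours. TNF and the interleukin 1 proteins IL1A and IL1B bind receptors that activate NF-kappa B, and NF-kappa B in turn drives transcription of many cytokine genes. IL6, IL11 and LIF signal through receptors that share the subunit IL6ST and activate STAT3. IL18 belongs to the interleukin 1 family and is cut by caspase 1, IL32 is an interferon- and TNF-inducible cytokine, and CSF1 and CSF2 act on macrophages and other myeloid cells. In epithelial ovarian carcinoma, IL6 and TNF are known as autocrine products of the tumour cells. Messenger RNAs of many cytokines are short-lived because proteins bind AU-rich elements in their 3′ untranslated regions (3′ UTRs).

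Total counts ran from 5599571 to 7730228 per library. Of the 10 epithelial and ovarian carcinoma markers, all were detected in OVCAR3 and all but WT1 in UWB1.289, where WT1 had at most 3 counts in any library. No libraries were identical. The replicate 4 library of OVCAR3 with olaparib stood apart from the other libraries of its group, with a chi-square per gene of 7.69 to 11.8 against them and 3.45 to 4.38 among the others, and results that rest on it are also given without it.

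Because the libraries were primed at the poly(A) tail, sequencing reads should lie close to transcript ends, in or near the 3′ UTR. Where the reads of each cytokine lay was not examined. The AU-rich pentamer ATTTA was counted on the transcript strand in the 3′ UTR of 1 representative transcript per gene (GENCODE release 44), with overlapping matches counted. TNF held 9 pentamers in 799 bases, IL6 held 6 in 425 bases, IL1B held 6 in 610 bases and CSF2 held 8 in 318 bases. Per kilobase these 4 genes ranked at percentiles 98.6 to 99.9 of 18780 coding genes. IL11 had 5.54 pentamers per kilobase and IL1A 4.38, LIF and CSF1 had 2.19 and 1.86, the median coding gene had 1.55, and IL18 and IL32 had none. The longer form TATTTAT occurred in 8 of the 10 cytokines and in 32.1% of coding genes. The stretches below, of at most 30 bases, are the densest in the genes on which the olaparib comparisons turned, with CSF2 as the gene of highest density. They are written 5′ to 3′ and capitals mark ATTTA.
TNF, 3′ UTR bases 462 to 491: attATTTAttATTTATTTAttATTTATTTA
IL1A, 3′ UTR bases 614 to 643: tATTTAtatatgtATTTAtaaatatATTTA
IL1B, 3′ UTR bases 329 to 358: tgagcaaccgcttccctATTTATTTATTTA
CSF1, 3′ UTR bases 2073 to 2102: tttatataaagtcATTTAaatatctATTTA
CSF2, 3′ UTR bases 220 to 249: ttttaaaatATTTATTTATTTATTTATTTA
TNF and CSF2 held 5 pentamers in their stretch, and CSF1 held 2. IL18 and IL32 show that a cytokine of this group can lack the element altogether.

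**Figure D1:**
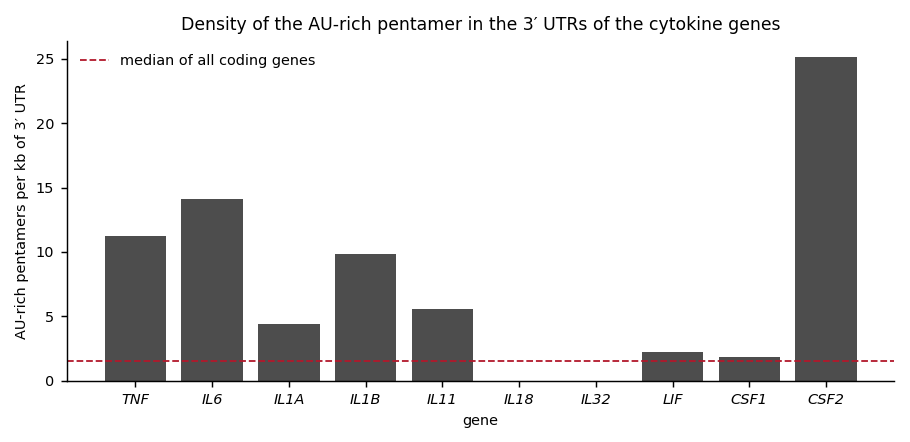
Bars give the number of ATTTA pentamers per kilobase of 3′ UTR in each cytokine gene, and the dashed line is the median of all coding genes (1.55). CSF2, IL6, TNF and IL1B stand far above the line, LIF and CSF1 lie close to it and IL18 and IL32 are at 0.

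Promoter sequences were available here for 7 of the 10 genes as 250 bases before the RefSeq start (GRCh38.p14). TNF, IL1A and IL1B are shown because they changed with olaparib, and IL6 because its window matched 2 of the motifs searched. Both strands were searched for the kappa B consensus, TGANTCA, TTGCNNAA and the interferon regulatory factor motif GAAA, any 2 bases, GAAA. The first 3 are written forms of sites for NF-kappa B, AP-1 and C/EBP. Capitals mark matches.
TNF, chr6:31575315-31575564, plus strand: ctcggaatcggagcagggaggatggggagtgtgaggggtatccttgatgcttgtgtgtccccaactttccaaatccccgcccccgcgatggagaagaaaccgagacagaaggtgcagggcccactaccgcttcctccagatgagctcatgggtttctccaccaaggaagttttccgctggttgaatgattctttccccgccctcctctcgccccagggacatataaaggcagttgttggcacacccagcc
IL1A, chr2:112784494-112784743, minus strand: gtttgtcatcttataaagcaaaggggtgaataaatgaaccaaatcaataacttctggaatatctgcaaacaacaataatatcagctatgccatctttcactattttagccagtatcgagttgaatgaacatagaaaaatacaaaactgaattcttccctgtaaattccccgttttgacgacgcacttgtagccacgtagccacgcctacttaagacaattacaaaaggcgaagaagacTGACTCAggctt
IL1B, chr2:112836780-112837029, minus strand: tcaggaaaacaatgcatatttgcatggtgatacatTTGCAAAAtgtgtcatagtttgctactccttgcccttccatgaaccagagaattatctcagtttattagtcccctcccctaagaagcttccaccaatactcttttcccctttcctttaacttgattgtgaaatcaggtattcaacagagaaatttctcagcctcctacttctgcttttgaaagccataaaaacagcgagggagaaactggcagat
IL6, chr7:22726950-22727199, plus strand: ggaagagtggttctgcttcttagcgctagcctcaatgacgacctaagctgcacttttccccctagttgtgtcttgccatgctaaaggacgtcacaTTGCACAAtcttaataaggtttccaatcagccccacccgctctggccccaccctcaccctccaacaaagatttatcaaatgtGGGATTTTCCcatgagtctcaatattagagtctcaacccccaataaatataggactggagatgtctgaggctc
IL6 matched the kappa B consensus at bases -73 to -64 and TTGCNNAA at -155 to -148. IL1A matched TGANTCA at -12 to -6 and IL1B matched TTGCNNAA at -215 to -208, whereas the TNF window held none of the 4. Of the genes not shown, IL32 matched the kappa B consensus in 2 overlapping positions between -99 and -89, IL11 matched TGANTCA at -96 to -90, and CSF2 had no match. Among 27305 promoters of the same length, 9.57% held the kappa B consensus, 6.6% TGANTCA, 9.13% TTGCNNAA and 3.07% the GAAA repeat. A match is a match of letters only.

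On GRCh38, TNF (ENSG00000232810) lies at chr6:31575565-31578336 on the plus strand, 2189 bases from LTB and 1241 bases from LTA, the lymphotoxin genes. IL1A (chr2:112773925-112784493) and IL1B (chr2:112829751-112836816) are neighbours on the minus strand, 45258 bases apart. CSF1 is at chr1:109910242-109930992, IL18 at chr11:112143253-112164096 and IL32 at chr16:3065297-3082192. IL6 (chr7:22725884-22732002), IL11 (chr19:55364382-55370463), LIF (chr22:30240453-30246759) and CSF2 (chr5:132073789-132076170) complete the set. IL6, LIF, IL18 and IL32 overlap genes on the opposite strand. The strand setting of the counting is not given in the sources used here, so reads of such pairs may not be separated. STEAP1B and IL6-AS1, which overlap IL6, had 134 and 18 counts over the 16 libraries, and LIF-AS1 and LIF-AS2 had 12 and 103.

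The first question was which of these cytokines differed after olaparib in each line. Differential expression was tested with edgeR over all genes, and a gene was called at an adjusted p below 0.1, a change beyond 2-fold and an average normalized count above 10. In OVCAR3, TNF and CSF1 rose, 2 of the 4 cytokines that had enough reads for the test, and none fell. TNF, CSF1 and LIF had enough reads there only with the help of their olaparib libraries. The shares and the median of tested members in OVCAR3 therefore partly follow from the low-count filter. The same call was reached by 2.9% of all 13031 genes tested in the upward direction and by 2.33% downward. In UWB1.289, TNF, IL1A, IL1B and CSF1 rose, 4 of 6 tested, and again none fell. The background in that line was 1.93% upward and 0.282% downward of 12748 genes. With the adjusted p alone, IL18 was added in OVCAR3 (3 of 4 members against 15.5% of all genes) and IL32 in UWB1.289 (5 of 6 against 7.77%). No member passed downward, where the shares of all genes were 16% and 6.1%. Treated and control libraries did not overlap, with the treated ones higher, in 2 of the 4 members tested in OVCAR3 and in 5 of the 6 tested in UWB1.289, beside 13.7% and 7.26% of all genes. The median log2 fold change of the tested members was 1.31 in OVCAR3 and 1.25 in UWB1.289, beside -0.01 and -0.00 over all genes.

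**Figure D2:**
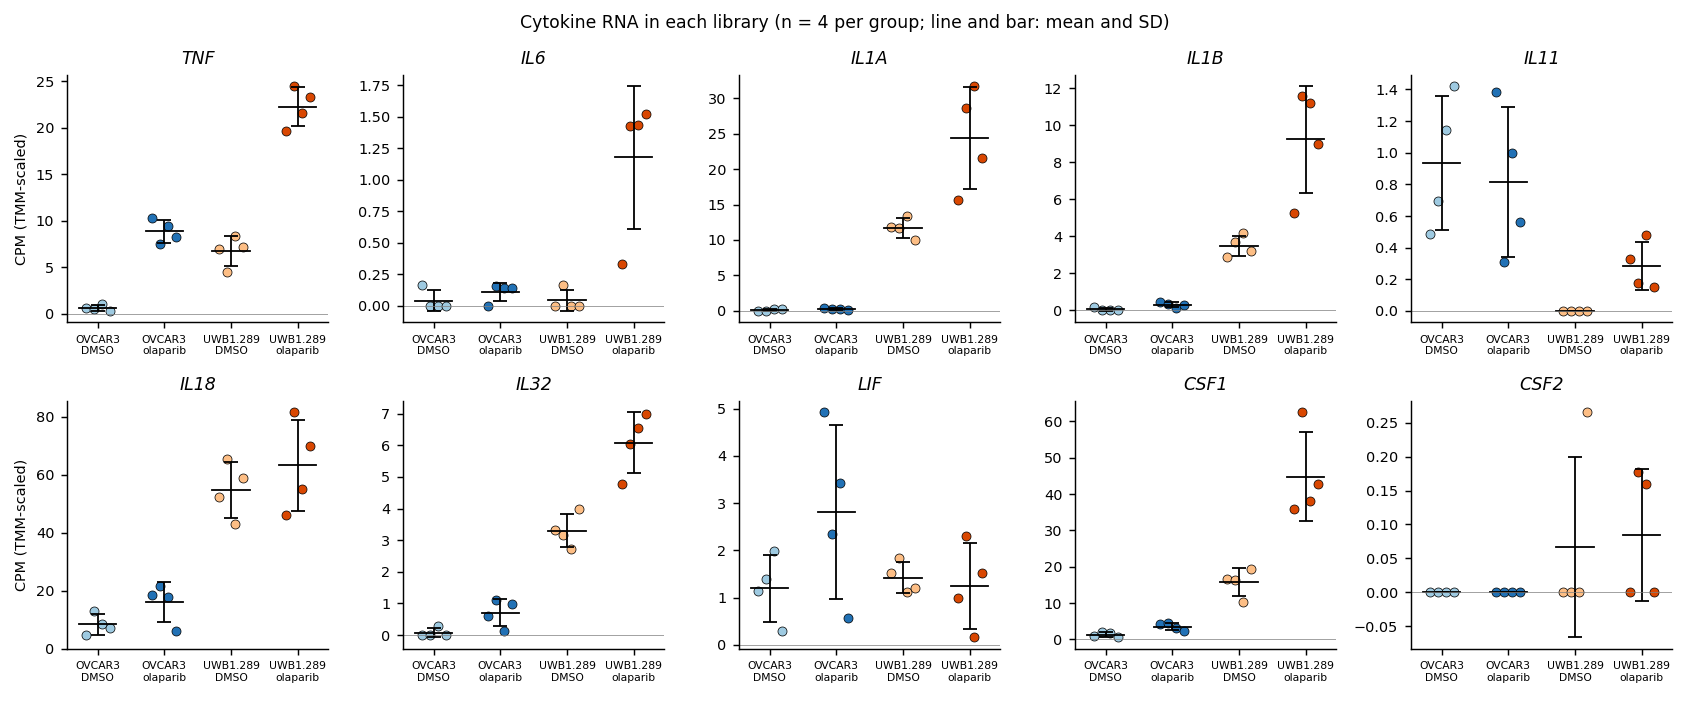
Each point is the read count of a cytokine in 1 library scaled to library size (TMM-scaled CPM), with the mean and SD of the 4 libraries of each group drawn in black. TNF and CSF1 lie higher with olaparib than with DMSO in both lines, IL1A and IL1B are close to 0 in OVCAR3, and CSF2 is at or near 0 in every library.

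TNF, the founding member of its cytokine family, had 4, 3, 7 and 2 reads in the 4 OVCAR3 libraries with DMSO and 67, 48, 66 and 59 with olaparib. The lowest olaparib library was thus far above the highest control. The mean level went from 0.613 ± 0.298 to 8.88 ± 1.24 CPM (SD, n = 4), a log2 fold change of 3.79 or 13.8-fold (SE 0.325, edgeR adjusted p = 4.37e-08). In UWB1.289 the counts were 46, 27, 52 and 54 with DMSO and 120, 138, 135 and 153 with olaparib. These groups did not overlap either, and the mean level went from 6.74 ± 1.60 to 22.3 ± 2.10 CPM (log2 fold change 1.73, SE 0.170, edgeR adjusted p = 1.71e-07; 3.31-fold). In order of level, OVCAR3 with DMSO was lowest and UWB1.289 with olaparib highest. Between them, UWB1.289 with DMSO (4.51 to 8.32 CPM) partly overlapped with OVCAR3 with olaparib (7.49 to 10.3 CPM). That pair of groups was not tested.

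The neighbour LTB, a membrane-bound relative of TNF, rose in both lines as well. Its mean level went from 2.43 ± 0.679 to 21.7 ± 1.88 CPM in OVCAR3 (log2 fold change 3.13, SE 0.199) and from 116 ± 22.1 to 287 ± 31.8 CPM in UWB1.289 (1.32, SE 0.109). LTA on the other side of TNF had 0, 4, 3 and 11 reads in all per group and was not tested. NFKBIL1, 16736 bases to the left, had log2 fold changes of 0.12 and 0.18 that did not pass (edgeR adjusted p = 0.569 and 0.391).

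IL1A and IL1B, the main agonists of the interleukin 1 receptor, were almost undetected in OVCAR3. IL1A had 0, 0, 2 and 2 reads with DMSO and 3, 2, 2 and 1 with olaparib, and IL1B had 1, 0, 0 and 0 and then 3, 2, 1 and 2. No library of that line exceeded 3 reads for either gene, so no fold is given. IL1B was called higher in OVCAR3 in the fit that held all 16 libraries, and in no other fit. In UWB1.289 IL1A had 78, 70, 84 and 75 reads with DMSO and 95, 161, 199 and 142 with olaparib. The groups did not overlap, although replicate 1 with olaparib stayed near the controls (15.6 CPM beside a highest control of 13.4). The mean level rose from 11.7 ± 1.42 to 24.4 ± 7.24 CPM (log2 fold change 1.07, SE 0.184, edgeR adjusted p = 4.02e-04). This change lies close to the 2-fold limit and fell under it in 3 of the 8 fits with 1 library left out, those without DMSO replicate 4, olaparib replicate 2 or olaparib replicate 3, where the lowest log2 fold change was 0.92. The adjusted p stayed at or below 0.00360 in every one of the 8 fits.

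IL1B had 19, 22, 26 and 24 reads in UWB1.289 with DMSO and 32, 65, 70 and 59 with olaparib. Here too every treated library was above every control. The mean level rose from 3.47 ± 0.562 to 9.24 ± 2.89 CPM (log2 fold change 1.42, SE 0.257, edgeR adjusted p = 7.14e-04; 2.68-fold). IL1RN, the natural antagonist that occupies the same receptor without activating it, lies on the same arm of chromosome 2 at chr2:113099315-113134016. In UWB1.289 it rose from 3.95 ± 1.58 to 19.1 ± 3.05 CPM (log2 fold change 2.28, SE 0.230), while in OVCAR3 it had at most 10 reads in any library. CKAP2L, the gene just beyond IL1A, did not pass in either line (edgeR adjusted p = 0.349 in OVCAR3 and 0.795 in UWB1.289).

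IL6, a driver of STAT3 signalling and of the acute phase response, had 1 read among the 4 OVCAR3 libraries with DMSO and 3 among those with olaparib. In UWB1.289 it had 0, 1, 0 and 0 reads with DMSO and 2, 8, 9 and 10 with olaparib. Every treated library of UWB1.289 was above every control, with replicate 1 well below the other 3. Summed over the group, the 29 treated reads against 1 control read gave a ratio of 31.1, with a 95% counting interval of 5.16 to 1272 (exact binomial). IL6 did not have enough reads for the test across genes. A two-sided exact permutation test of log2 CPM gave p = 0.0286, the smallest value that 4 against 4 libraries allow. With same-numbered libraries of UWB1.289 taken as pairs, IL6 was higher in 4 of 4 pairs and an exact two-sided sign-flip test gave p = 0.125, again the smallest possible. Counting intervals cover counting error only.

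IL11 and LIF, which use the same signalling subunit as IL6, were not called in either line. IL11 had 3, 4, 8 and 10 reads in OVCAR3 with DMSO and 9, 2, 7 and 4 with olaparib, and the groups overlapped throughout (two-sided exact permutation p = 0.629). In UWB1.289 it was at 0 in every DMSO library and had 2, 1, 3 and 1 reads with olaparib. These groups did not overlap (two-sided exact permutation p = 0.0286, and 0.125 with the libraries paired by number, each the smallest possible), but both were within the floor of 3 reads and no fold is given. LIF had 7, 8, 14 and 2 reads in OVCAR3 with DMSO and 32, 15, 24 and 4 with olaparib. The estimated log2 change was 1.20 (SE 0.530, 95% interval 0.16 to 2.23), which did not pass (edgeR adjusted p = 0.110). Without the replicate 4 library that stood apart, LIF in OVCAR3 had a log2 fold change of 1.55 and did pass (edgeR adjusted p = 0.00647). It also passed with no filter on low counts (0.0347), with the replicate number as a block (0.0422) and without DMSO replicate 3 (0.0838), all by edgeR. In UWB1.289 LIF had 10, 11, 7 and 9 reads and then 6, 13, 1 and 10, and the groups overlapped (two-sided exact permutation p = 0.686).

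IL18 was well covered in UWB1.289 but was not called there. Its counts were 345, 393, 268 and 442 with DMSO and 282, 460, 346 and 459 with olaparib. The groups overlapped, and the log2 fold change of 0.22 (SE 0.146, 95% interval -0.07 to 0.51) did not pass (edgeR adjusted p = 0.399). In OVCAR3 IL18 had 29, 75, 60 and 49 reads with DMSO and 120, 139, 125 and 44 with olaparib. Of the treated libraries 3 were above every control, and replicate 4 was below 3 of the 4 controls. The log2 fold change was 0.93 (SE 0.303, edgeR adjusted p = 0.0289), under 2-fold, and it became 1.22 without that library (edgeR adjusted p = 1.19e-05). The pass was lost with DESeq2 (adjusted p = 0.145), without DMSO replicate 1 (edgeR adjusted p = 0.108) and without olaparib replicate 2 (0.116).

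IL32 was close to absent in OVCAR3, with 0, 0, 2 and 0 reads with DMSO and 4, 7, 1 and 7 with olaparib. The groups overlapped at replicate 3, the ratio of summed reads was 9.13 (95% counting interval 2.20 to 80.9), and the two-sided exact permutation test gave p = 0.0571. Like IL1B, it was called higher in OVCAR3 in the fit of all 16 libraries. In UWB1.289 the counts were 22, 19, 17 and 30 with DMSO and 29, 34, 41 and 46 with olaparib. On the CPM scale these groups did not overlap, and the mean level went from 3.30 ± 0.525 to 6.09 ± 0.965 (log2 fold change 0.89, SE 0.246, edgeR adjusted p = 0.0236), a pass on adjusted p that stayed under 2-fold.

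CSF1, the growth factor of macrophages, was the other cytokine that rose in both lines. It had 5, 12, 12 and 4 reads in OVCAR3 with DMSO and 27, 29, 22 and 16 with olaparib, without overlap. The control libraries lay between 0.569 and 2.08 CPM and the treated ones between 2.25 and 4.53 CPM (log2 fold change 1.42, SE 0.395, edgeR adjusted p = 0.0118; 2.68-fold). In UWB1.289 it had 110, 98, 65 and 146 reads with DMSO and 219, 352, 238 and 281 with olaparib. The lowest treated library (36.0 CPM) was above the highest control (19.4 CPM), and the log2 fold change was 1.52 (SE 0.176, edgeR adjusted p = 2.27e-06; 2.86-fold). CSF2, the granulocyte-macrophage factor, had no read in any OVCAR3 library and at most 2 in any UWB1.289 library. The receptors of these factors, CSF1R, CSF2RA and CSF2RB, had at most 2 reads in any of the 16 libraries.

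**Figure D3:**
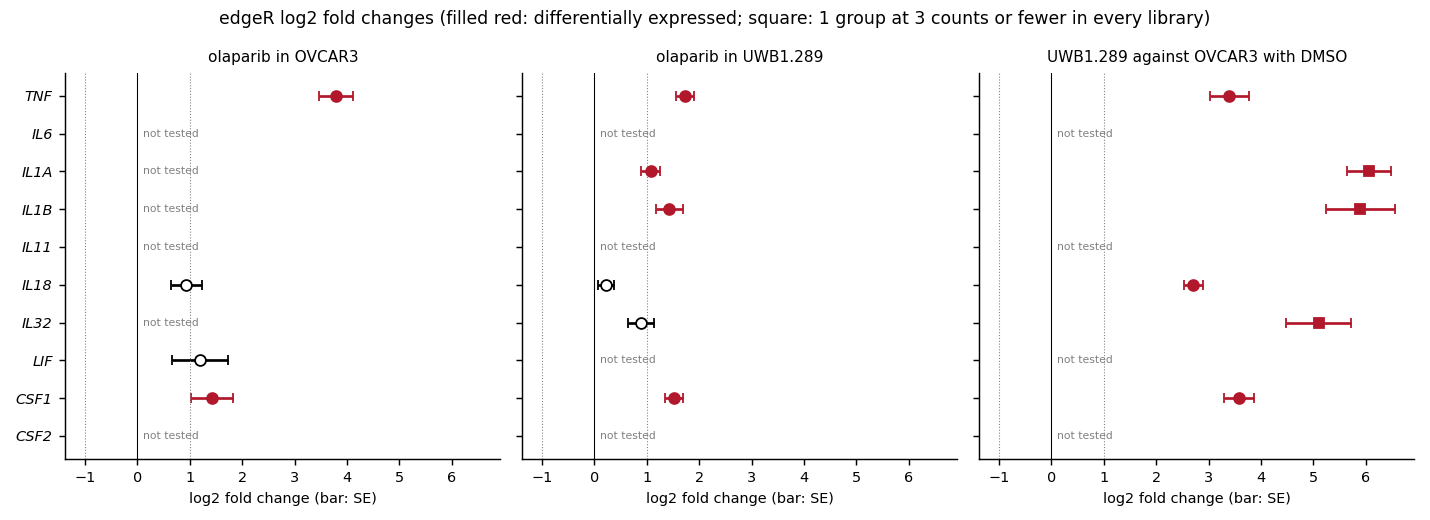
Points are edgeR log2 fold changes with SE bars for each cytokine in 3 comparisons on a common axis. Filled red points were called, squares have 1 group with at most 3 reads in every library so that the fitted value is no bound, dotted lines mark 2-fold, and TNF and CSF1 are the cytokines called in all 3 panels.

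The next question was how the lines differed without the drug. All 6 cytokines that could be tested in the DMSO libraries were higher in UWB1.289 than in OVCAR3, and none was lower. This comparison called 18.7% of 13366 genes as higher and 19.7% as lower, and on the adjusted p alone it passed 39.8% and 40.1%. The lines did not overlap in any of the 6 members, with UWB1.289 higher, as in 35.3% of all genes. All of them except IL18 entered the test only through their reads in UWB1.289. The count of members called higher, the absence of lower ones and the lack of overlap therefore largely follow from the low-count filter. CSF1 was 12.0-fold higher (log2 fold change 3.58, SE 0.286, edgeR adjusted p = 1.91e-12), TNF 10.5-fold higher (3.39, SE 0.371) and IL18 6.53-fold higher (2.71, SE 0.175). For IL1A, IL1B and IL32, OVCAR3 had 4, 1 and 2 reads in all against 307, 91 and 88 in UWB1.289. The ratios were 75.6 (95% counting interval 29.2 to 279), 89.6 (15.7 to 3579) and 43.3 (11.6 to 363). IL11 went the other way. It had 3 to 10 reads in every OVCAR3 library with DMSO and none in UWB1.289, where it was at least 2.04-fold lower against a floor of 3 reads per library (two-sided exact permutation p = 0.0286, the smallest possible). LIF overlapped between the lines (two-sided exact permutation p = 0.657), and IL6 and CSF2 had at most 2 reads per library in both.

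Markers of other cell types were looked at beside these results, since leukocytes and stromal cells also make several of the cytokines. Of 13 leukocyte markers, 12 had at most 3 reads in every OVCAR3 library with DMSO and 10 in UWB1.289 with DMSO, and CD3E, MS4A1, NKG7, LYZ and CD163 were at or near 0 in all groups. The summed level was 0.347 to 1.78 CPM in OVCAR3 with DMSO, 0.713 to 1.85 with olaparib, 8.64 to 12.0 in UWB1.289 with DMSO and 14.6 to 21.1 with olaparib. PTPRC, at 6.16 and 7.85 CPM, and CD14, at 3.18 and 7.67 CPM, made up most of the sum in UWB1.289, and CD14 rose with olaparib (log2 fold change 1.28, edgeR adjusted p = 0.00374). Of 8 fibroblast and endothelial markers, 6 had at most 3 reads in every OVCAR3 library with DMSO and 5 in UWB1.289 with DMSO. Their summed level was 23.2 to 30.5 CPM in OVCAR3 with DMSO, 33.9 to 39.6 with olaparib, 8.93 to 13.9 in UWB1.289 with DMSO and 11.9 to 13.9 with olaparib. Between the lines with DMSO, the 2 leukocyte markers with enough reads for the test were both called higher in UWB1.289. These were PTPRC (6 against 162 reads in all) and CD14 (19 against 83). The endothelial genes PECAM1 (0 against 87) and CDH5 (1 against 100) were also called higher in UWB1.289, and COL1A1 was called lower. COL1A1 passed the adjusted p upward with olaparib in OVCAR3 (log2 fold change 0.57, edgeR adjusted p = 0.00296), and DCN, LUM and COL3A1 were at or near 0 in all groups. The part of these markers in the cytokine results was not tested. In bulk RNA, fewer cells of a type and less RNA per cell cannot be told apart.

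Whether the response to olaparib differed between the lines was tested as an interaction over all 16 libraries. TNF was the only 1 of 7 tested members that was called. Its log2 fold change in UWB1.289 minus that in OVCAR3 was -2.06 (SE 0.379, edgeR adjusted p = 5.43e-04). The lines thus started 10.5-fold apart, and the smaller fold was in the line with the higher starting level. Of 14243 genes, 1.66% were called lower and 2% higher in this contrast, and 5.83% and 5.09% passed the adjusted p alone. CSF1 gave a difference of 0.10 (95% interval -0.90 to 1.09, edgeR adjusted p = 0.960). This approximate interval reaches past a 2-fold larger response in UWB1.289 and close to a 2-fold smaller one. IL18 (-0.71) and LIF (-1.37) did not pass (edgeR adjusted p = 0.247 and 0.340). Without replicate 4 of OVCAR3 with olaparib, the IL18 difference was -0.999 and passed the adjusted p (edgeR, 0.0145). Values for IL1A (0.23), IL1B (-1.01) and IL32 (-2.00) did not pass and rest on OVCAR3 libraries with few or no reads.

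Among the treated libraries, 1 replicate in each line was often the lowest. Replicate 1 of UWB1.289 with olaparib was the lowest of its group in 7 of the 8 cytokines that were above the floor, whereas it was lowest in 26.7% of all tested genes. Without it the log2 fold changes in that line were 1.78 for TNF, 1.24 for IL1A, 1.62 for IL1B and 1.61 for CSF1. In OVCAR3 with olaparib, replicate 4 was lowest in 3 of 6 (IL18, LIF and CSF1) and in 28.1% of all tested genes. For TNF that library was inside the range of the others, and the log2 fold change without it was 3.83. CSF1 without it was 1.60.

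**Figure D4:**
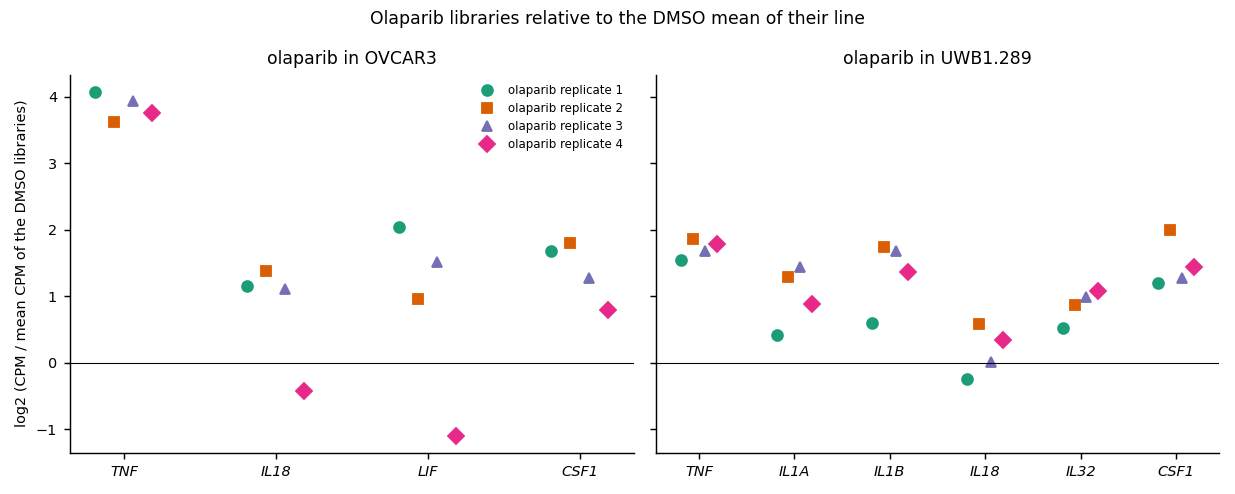
Each symbol is the log2 ratio of the CPM in 1 olaparib library to the mean CPM of the DMSO libraries of the same line, for the cytokines tested in that line. Replicate 4 lies below 0 for IL18 and LIF in OVCAR3 but with the other replicates for TNF, and replicate 1 is lowest for every cytokine shown in UWB1.289.

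For the 4 cytokines with an average above 50 reads, the genes with the most similar pattern were sought among 9537 genes by Pearson's r of log2 CPM centred within each line, over the 16 libraries. These r values are descriptions, and the points share the drug contrast and the libraries. Closest to TNF were LTB (r = 0.986), PTX3 (0.971) and RAB11FIP5 (0.966). CSF1 lay nearest to B2M (0.936), HLA-B (0.920) and ADM (0.919), the first 2 being parts of the MHC class I molecule. IL1A was nearest to CD83 (0.864), followed by C9orf78 (0.823) and PPP4R1L (0.821). IL18 was nearest to PLAU (0.925), PDCD2L (0.924) and RPN1 (0.915).

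The genes around the cytokines were then examined by role, starting with 17 receptors and antagonists. With olaparib 1 was called higher in OVCAR3 (of 11 tested) and 1 in UWB1.289 (of 9), and none lower. In OVCAR3 it was TNFRSF1B, the second TNF receptor, which rose from 2.74 ± 1.42 to 10.4 ± 1.91 CPM (log2 fold change 1.93, SE 0.271), whereas the main receptor TNFRSF1A passed the adjusted p with a log2 fold change of -0.38. In UWB1.289 it was IL1RN, described above, and TNFRSF1B had at most 4 reads per library. The shared subunit IL6ST passed the adjusted p in both lines without reaching 2-fold (log2 fold change 0.95 in OVCAR3 and 0.52 in UWB1.289). Between the lines with DMSO, 1 receptor-list gene was called higher and 4 lower of 12 tested, beside 18.7% and 19.7% of all genes. IL1R1, the signalling receptor of IL1A and IL1B, was at 76.6 ± 5.91 CPM in OVCAR3 and 2.89 ± 0.978 CPM in UWB1.289 (log2 fold change -4.77). LIFR (-5.30), IL18R1 (-3.39) and IL11RA (-1.84) were also lower in UWB1.289, and IL1RN was higher (2.31). The line with more IL1A and IL1B reads was therefore the line with fewer reads of their receptor.

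Among 12 genes for processing and release, such as the caspases and the sheddase ADAM17, none was called with olaparib in either line (of 10 tested in OVCAR3 and 9 in UWB1.289). ADAM17, which cuts TNF from the membrane, was at 114 ± 5.98 and 126 ± 7.32 CPM in OVCAR3 and at 164 ± 5.46 and 150 ± 13.7 CPM in UWB1.289. RHBDF1, a partner of ADAM17, passed the adjusted p in UWB1.289 with a log2 fold change of -0.94, and its response differed between the lines (-1.08, edgeR adjusted p = 0.00123). With DMSO, CASP4 (log2 fold change 1.19) and RHBDF1 (1.01) were higher and ADAM10 (-1.05) was lower in UWB1.289. Of 8 factors that act on cytokine mRNA decay, 1 was called with olaparib in each line, and it was ZC3H12A in both. ZC3H12A, the RNase regnase-1 that degrades IL6 and other cytokine mRNAs, rose from 8.60 ± 1.18 to 45.5 ± 1.96 CPM in OVCAR3 (log2 fold change 2.38, SE 0.127) and from 15.9 ± 2.23 to 46.4 ± 9.15 CPM in UWB1.289 (1.55, SE 0.146). ZFP36, which binds ATTTA elements, was lower in UWB1.289 than in OVCAR3 with DMSO (-2.81), while its relative ZFP36L1 was higher (1.17).

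The 13 genes taken as a readout of TNF, interleukin 1 and STAT3 signalling included 7 that were called higher in OVCAR3 with olaparib and 6 in UWB1.289, of 12 tested in each, and none that was called lower. This list was written with earlier results of these data known, so its direction is no independent evidence. TNFAIP3, a feedback inhibitor of NF-kappa B, rose in both lines (log2 fold change 2.67 and 1.97), as did NFKBIZ (1.26 and 1.90), PTX3 (4.13 and 1.43), LCN2 (mean levels from 6.96 to 34.7 and from 140 to 278 CPM) and ICAM1 (2.19 and 1.09). In UWB1.289 the LCN2 change lay at the 2-fold limit, with log2 fold changes of 0.90 to 1.08 when 1 library was left out. SAA1, an acute phase gene, went from 0 to 1 read per library to 13 to 31 in OVCAR3 and from 0 to 6 to 17 to 23 in UWB1.289. Its reads may be shared with the near-identical SAA2. The responses of PTX3 (-2.70), LCN2 (-1.28) and ICAM1 (-1.10) were smaller in UWB1.289 by the interaction test, as for TNF. On the adjusted p alone, 4 of the 12 list genes tested passed lower and 1 higher, and the list median was -0.18. Without drug, PTX3, LCN2 and ICAM1 were higher in UWB1.289, at log2 fold changes of 3.78, 4.30 and 4.16. SOCS3, a STAT3 target, was lower there (-2.86).

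Of 28 other cytokine genes, 11 had enough reads for the test in OVCAR3 and 10 in UWB1.289. With olaparib 4 were called higher in OVCAR3, LTB, IL23A (log2 fold change 1.89), TNFSF9 (1.30) and TNFSF10 (1.12), and 3 in UWB1.289, TNFSF15 (1.98, SE 0.410), TNFSF10 (1.81, SE 0.127) and LTB. TNFSF10 encodes the death ligand TRAIL. None was called lower in either line. Between the lines with DMSO, 11 were tested and 5 were called higher in UWB1.289. The largest of these differences were those of LTB (5.55), IL23A (3.15) and TGFB1 (3.13). Another 4 were called lower, among them MIF (-1.93) and TNFSF9 (-1.43). Of all genes, 18.7% were called higher and 19.7% lower in that comparison. In the interaction, TNFSF15 (2.27) was called higher and LTB (-1.81) lower. The calls of IL15 (1.56, edgeR adjusted p = 0.0776) and TGFB1 (-1.19, 0.0813) were lost when any of several single libraries was left out, with edgeR adjusted p up to 0.299 and 0.189, and with the replicate number as a block (0.104 and 0.117).

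**Figure D5:**
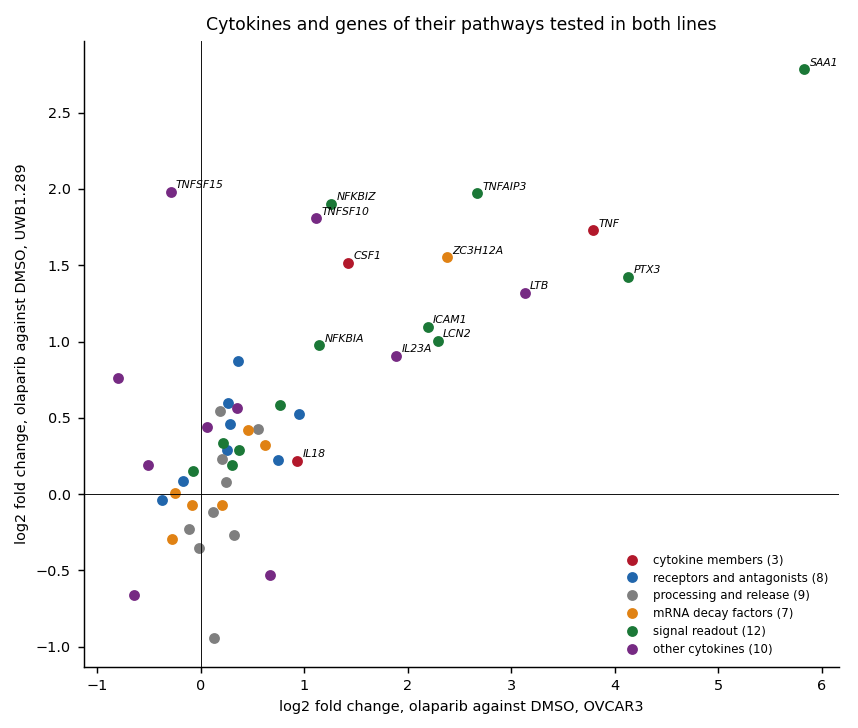
Each point is a gene tested in both lines, placed by its log2 fold change with olaparib in OVCAR3 (horizontal) and UWB1.289 (vertical) and coloured by list. TNF, LTB and PTX3 lie far to the right with a smaller change in UWB1.289, CSF1 has nearly equal values in both lines, and TNFSF15 is high on the vertical axis alone.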

How the data were processed

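The authors sequenced QuantSeq 3′ mRNA libraries of the 2 cell lines. BBDuk was used for trimming, STAR 2.7.9a in 2-pass mode for alignment to hg38, and featureCounts 2.0.0 with GENCODE release 38 for gene counts. The deposited values are raw counts per gene, with no normalization. Total counts per library ranged from 5599571 to 7730228, so a gene near 10 reads carries a large counting error.

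The quasi-likelihood F test of edgeR 4.0.16 in R 4.3.3 was run on the counts after filterByExpr and TMM scaling, and p-values were adjusted over all tested genes (Benjamini-Hochberg). Each line was compared on its own 8 libraries, the lines on the 8 DMSO libraries, and the interaction on all 16. CPM are TMM-scaled, and log2 CPM used a prior count of 2. A group with at most 3 reads in every library was treated as at the floor. For members outside the test, log2 CPM was permuted exactly (two-sided), and 4 against 4 libraries cannot reach a p below 0.0286. Gene positions and 3′ UTRs came from GENCODE release 44, and promoters from RefSeq.

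All 10 members are named. From the other lists, up to 6 called genes of the largest change per comparison are named, and a few further list genes, neighbours and markers were chosen after their values were seen. The members and lists were chosen with earlier results of these data known. The script was tested on simulated data with known changes.

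The alternatives changed the test (DESeq2 1.42.0), the size factors (those of DESeq2), the low-count filter (none), the threshold (adjusted p below 0.05, or adjusted p alone) and the prior count (0.5). Others fitted all 16 libraries together, took the replicate number as a block, or left out 1 library at a time. Same-numbered DMSO and olaparib libraries of UWB1.289 deviated together from their group means (r = 0.135 to 0.249 over 9159 genes). Every pair was above 0.1, and by that limit its replicate numbers were taken to pair the libraries. For DMSO replicate 1, however, an olaparib library of another number had the higher r (0.190 against 0.135). The reported fits carry no block, and the fits with one are alternatives. In OVCAR3 r was 0.0583 to 0.184, with 2 pairs under 0.1, and the numbers were not taken to pair them. There too, only DMSO replicate 1 had a higher r with another number (0.145 against 0.0868). The different treatment of the lines thus rests on the limit of 0.1. A paired permutation within UWB1.289 was added after seeing the data.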

Additional observations from a re-analysis of the deposited data

Results flagged for a closer look

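IL6 in replicate 1 of UWB1.289 with olaparib had a log2 CPM of -0.652, below the other 3 libraries of its group at 0.79 to 0.87. The gap to the nearest library is large against the range of the group (Dixon's test for 4 values). It rests on 2 reads against 8 to 10. The same library was lowest in 7 of the 8 cytokines above the floor.

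IL18 in replicate 4 of OVCAR3 with olaparib had a log2 CPM of 2.7 while the other 3 libraries were at 4.18 to 4.46, and it met the same criterion. Dixon's test was applied to 26 groups and marked these 2. Chance alone marks about 1 group in 20.

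The olaparib effect on TNF in UWB1.289 minus that in OVCAR3 was -2.06 on the log2 scale, by the edgeR interaction test (adjusted p = 5.43e-04). TNF was higher with olaparib in every treated library of both lines. Over the 21 alternatives the difference stayed between -2.42 and -1.82, with an edgeR or DESeq2 adjusted p of at most 0.00366.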

How the results depend on the processing

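The 4 cytokines called in UWB1.289 with olaparib were also called under DESeq2, its size factors, no filter, all 16 libraries, adjusted p below 0.05 and the replicate block. Leaving out 1 library gave 3 to 4, and each loss was IL1A (without DMSO replicate 4, olaparib replicate 2 or olaparib replicate 3). In OVCAR3, TNF and CSF1 were called in every fit. The count was 4 with all 16 libraries in the fit (IL1B and IL32 added), 3 with no filter and 3 with the replicate block (LIF added, edgeR adjusted p = 0.0422), and 2 to 4 with 1 library left out, reaching 4 without olaparib replicate 4 (IL18 and LIF added) and 3 without DMSO replicate 2 (IL18) or 3 (LIF). Between the lines the 6 calls held in every other setting and were 4 to 6 with 1 library left out, where UWB1.289 replicate 1 decided IL32, replicate 3 decided IL1B and replicates 2 and 4 decided both, since the average count then fell under 10. In the interaction TNF was called in every fit, and 1 to 2 cytokines were called with 1 library left out, where IL32 was added without OVCAR3 DMSO replicate 3 (-4.33) or olaparib replicate 3 (-2.35). The sign of 2 uncalled differences turned in those fits. For CSF1 they ran from -0.19 to 0.35, and for IL1A from -0.26 to 0.58. IL18 in the interaction passed the adjusted p with no filter (0.00591) and with the replicate block (0.0849, edgeR). In the edgeR fits the replicate block changed no other call among the members, and it lost those of IL15 (edgeR adjusted p = 0.104) and TGFB1 (0.117) in the interaction. With a prior count of 0.5, the same number of members outside the test (2) reached the smallest permutation p. With UWB1.289 libraries paired by replicate number this count was 1, since 4 pairs give no p below 0.125 (IL6 lost). With a library left out, 3 against 4 gives no permutation p below 0.0571, so that was not run. Where no cause is named, the cause was not tested. Depth limits IL6, IL11, IL32, LIF and CSF2, and IL1A and IL1B in OVCAR3.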
